A study of Homo sapiens with 6 samples.

Results

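Transcripts of 9 genes of the PI3K, AKT and mTOR pathway were followed in HCT116 cells, a human colon carcinoma line, with and without curcumin, the yellow polyphenol of turmeric. The genes were taken by name: the catalytic subunits PIK3CA and PIK3CB, the regulatory subunits PIK3R1 and PIK3R2, the kinases AKT1 and AKT2, the tuberous sclerosis genes TSC1 and TSC2, and MTOR. All 9 were found among the 35106 genes of the deposited table, 1 row each. The untreated group (n = 3 libraries) was labelled with no treatment, and the curcumin group (n = 3 libraries) was exposed for 24 h to 30 µM, the reading taken here of a dose label that writes the unit as micrometres. Both groups carried the genotype label WT and came from this single line, which is known to hold an activating mutation in PIK3CA. Whether untreated cells received the solvent is not given in the sources used here. Libraries are not tied to separate cultures by any label, and p-values therefore cover only variation among these libraries, which may be technical.

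Growth factor receptors recruit class IA PI3K, a pair of one catalytic and one regulatory subunit, which makes the membrane lipid PIP3. PIP3 brings AKT to the membrane, where AKT is phosphorylated and in turn inhibits the complex of TSC1 and TSC2. That complex switches off the small GTPase RHEB, the direct activator of mTOR complex 1, so its loss turns on protein synthesis and cell growth. The pathway is often activated by mutation in colon cancer. RNA sequencing reads only the transcripts of these genes, not the phosphorylation through which most of the signal runs.

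Of the 9 transcripts, 2 rose after curcumin (AKT1 and TSC2), 5 fell (PIK3CA, PIK3CB, PIK3R1, TSC1 and MTOR), and 2 did not pass the test (PIK3R2 and AKT2). The catalytic subunit PIK3CB stood at 25.9% of its untreated level, the furthest of the 9, and its sister PIK3CA at 45.97%. Of the regulatory subunits PIK3R1 fell while PIK3R2 did not pass the test, and of the TSC pair TSC1 fell while TSC2 rose. Passing the test was common in these libraries, but a fall as large as that of PIK3CB was not. Of all genes tested, 4.26% had a lower log2 fold change than PIK3CB, and 16.07% a lower one than PIK3CA. In the edgeR quasi-likelihood test of 13718 genes (a call needed an adjusted p under 0.05, Benjamini-Hochberg), 27.2% of all genes were called higher, 28.9% lower and 56.1% in either direction. The median log2 fold change of the 9 genes was -0.54, against -0.04 over all genes tested. Counts from bulk RNA, scaled between libraries, give change relative to other genes and do not show whether total RNA per cell changed.

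Levels are given as TMM-scaled CPM, counts relative to the effective size of the library, and a fold change is curcumin over untreated on the log2 scale with its standard error. Library totals lay between 16663562 and 20311769 counts, and TMM factors lay between 1.30 and 1.34 in untreated and between 0.72 and 0.80 in curcumin libraries. The 100 most abundant genes of a library held 18.9% to 22.7% of counts in untreated and 39.9% to 43.3% in curcumin libraries. With library size alone in place of TMM, the median log2 fold change of all genes moved by -0.80, 9.62% of genes were called higher and 56.5% lower, so directions hold relative to the bulk of genes. Of 8 colon epithelial markers, 6 were above 1 CPM in every library, while VIL1 and CEACAM5 were near 0. The epithelial sum lay at 3790 to 4488 CPM in untreated and 7217 to 8462 CPM in curcumin libraries, while CDX2 lay at 24.2 to 26.6 and 7.70 to 13.1 CPM. Summed endothelial markers lay at 1.44 to 2.24 CPM in untreated and 8.97 to 28.2 CPM in curcumin libraries, in the latter mostly PECAM1, with CDH5 near 0. Summed leukocyte markers lay at 2.51 to 3.45 and 15.9 to 32.9 CPM, mostly CD68, with PTPRC and CD3E at or near 0. Of 5 fibroblast markers only COL1A1 was above 1 CPM in every library, and their sum lay at 25.99 to 31.1 and 15.5 to 38.3 CPM. Their part in the results was not tested.

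The transcripts of these genes differ in length and base composition (GENCODE release 29, GRCh38). PIK3CA (chr3:179148114-179240093, plus strand) has 21 exons in its longest coding transcript of 9093 bases, of which 5732 are 3′ UTR, at 34.8% GC. PIK3CB (chr3:138652699-138834938, minus strand) has 22 exons and 5919 bases at 39.4% GC, and PIK3R1 (chr5:68215720-68301821, plus strand) has 16 exons and 7011 bases at 40.3% GC. These 3 transcripts, all of which fell, are the poorest in G and C of the 9. MTOR (chr1:11106535-11262507, minus strand) has 58 exons and 8677 bases at 52.2% GC, 7647 of them coding. TSC1 (chr9:132891348-132946874, minus strand) has 8715 bases at 48.5% GC in its longest coding transcript. The transcripts that rose or did not pass the test are richer in G and C: TSC2 (chr16:2047465-2089487, plus strand) at 60.5%, AKT1 (chr14:104769349-104795751, minus strand) at 58.7%, AKT2 (chr19:40230317-40285536, minus strand) at 58.3% and PIK3R2 (chr19:18153118-18170540, plus strand) at 64.2%.

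Promoter sequence is shown for 3 genes that fell (PIK3CB, PIK3R1 and MTOR) and 1 that rose (AKT1), to set the starts of genes that moved in opposite directions side by side. Each sequence is the part of the 250 bases before the first RefSeq start (GRCh38.p14) that lies outside annotated exons, written 5′ to 3′ on the gene's strand. The stretches are chr3:138834939-138835178 (minus strand), chr5:68215506-68215719 (plus strand), chr1:11262552-11262801 (minus strand) and chr14:104795752-104795998 (minus strand). Capitals mark matches on either strand to 6 short motifs: GGGCGG (a GC box bound by SP factors), CCAAT (bound by NF-Y), TTCCGG (the core of ETS sites), TGTTTAC (FOXO), TGACGTCA (the cAMP response element) and CACGTG (an E-box).
PIK3CB: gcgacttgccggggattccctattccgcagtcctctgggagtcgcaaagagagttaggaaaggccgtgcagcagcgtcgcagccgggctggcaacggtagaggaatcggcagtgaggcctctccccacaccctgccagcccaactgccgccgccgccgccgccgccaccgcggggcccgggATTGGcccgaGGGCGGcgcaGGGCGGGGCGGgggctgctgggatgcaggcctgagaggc
PIK3R1: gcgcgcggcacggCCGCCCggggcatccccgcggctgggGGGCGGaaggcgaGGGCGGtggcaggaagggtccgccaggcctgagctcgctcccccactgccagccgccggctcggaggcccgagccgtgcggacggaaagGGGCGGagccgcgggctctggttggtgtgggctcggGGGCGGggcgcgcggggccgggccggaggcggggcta
MTOR: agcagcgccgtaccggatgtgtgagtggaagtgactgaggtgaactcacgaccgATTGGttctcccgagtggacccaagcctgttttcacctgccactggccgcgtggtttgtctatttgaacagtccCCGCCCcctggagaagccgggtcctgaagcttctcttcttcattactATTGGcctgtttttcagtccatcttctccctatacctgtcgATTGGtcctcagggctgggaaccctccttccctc
AKT1: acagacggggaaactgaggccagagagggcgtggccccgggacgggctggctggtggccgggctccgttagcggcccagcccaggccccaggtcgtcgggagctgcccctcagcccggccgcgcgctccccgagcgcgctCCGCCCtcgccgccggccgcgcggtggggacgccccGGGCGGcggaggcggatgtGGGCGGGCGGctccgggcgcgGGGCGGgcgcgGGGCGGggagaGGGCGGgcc

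The GC box was the most frequent of these motifs. All 9 genes had entries, with 16 starts in all, and 13 of these 16 windows of 250 bases held it, against 42.6% of 35116 promoters of the same length. Some genes gave several windows, and the 2 windows of TSC2 overlap in part, so the 16 are not separate promoters. The 35116 were not matched to the 9 genes in GC content or expression. At its first start, AKT1's window (83.2% GC) held 7 matches in part overlapping, and PIK3R1's (81.6% GC) held 5. Other starts held fewer. AKT1's window at start 2 (57.2% GC) held 1. PIK3R1's window at start 2 (60% GC) held 2, and those at starts 3 and 4 (39.6% and 40.8% GC) held 0. Which starts these cells use, and the part of the motifs in the changes, was not tested. MTOR's window, at 55.6% GC, held 3 CCAAT matches and 1 GC box, and the median GC of all promoters was 58%. CCAAT was matched in 6 of 16 windows (32% of all promoters), TTCCGG in 5 of 16 (14.5%), CACGTG in 1 of 16 (TSC2, 6.34%), TGTTTAC in 1 of 16 (PIK3CA, 2.98%) and TGACGTCA in 0 of 16 (1.65%). The GC box is made of G and C alone, and a match is a description of letters, not of binding.

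The catalytic subunits fell. PIK3CB encodes p110β, the class IA subunit that also answers to G protein-coupled receptors. It stood at 50.5, 55.3 and 51.6 CPM in untreated and at 15.6, 13.7 and 11.4 CPM in curcumin libraries. Every curcumin library lay far below every untreated one. The fall, from 52.5 ± 2.51 to 13.6 ± 2.11 CPM (SD, n = 3), was -1.95 ± 0.17 on the log2 scale (edgeR adjusted p = 1.95e-05). PIK3CB was called lower in 17 of 17 alternative settings. PIK3CA encodes p110α, the subunit most often mutated in tumours, and these counts do not separate its alleles. It stood at 23.5, 27.0 and 24.6 CPM in untreated and at 8.37, 11.98 and 14.15 CPM in curcumin libraries. The groups did not overlap, and the curcumin libraries differed among themselves by more than the untreated ones. The log2 fold change was -1.12 ± 0.22 (adjusted p = 0.00158), from 25.02 ± 1.82 to 11.5 ± 2.92 CPM. With the trend of each library's counts with transcript length removed, PIK3CA was no longer called (-0.37, adjusted p = 0.146).

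Of the regulatory subunits, which hold p110 stable and bind phosphorylated receptors, the less abundant one fell. PIK3R1, encoding p85α, stood at 22.5, 20.6 and 24.8 CPM in untreated and at 5.76, 6.35 and 13.4 CPM in curcumin libraries. Curcumin replicate 3 held more than the other two, yet less than any untreated library. From 22.7 ± 2.10 to 8.49 ± 4.23 CPM, the change was -1.42 ± 0.30 (adjusted p = 0.00288), a call that held in 17 of 17 alternative settings. PIK3R2, encoding p85β, is the major regulatory transcript of these cells. It stood at 219, 194 and 221 CPM in untreated and at 252, 260 and 236 CPM in curcumin libraries. Every curcumin library lay above every untreated one, but the gap was small: 211 ± 15.1 against 249 ± 12.2 CPM, 0.24 ± 0.13 on the log2 scale (adjusted p = 0.143). Its direction turned on the scaling, at -0.56 (adjusted p = 0.00504) under library size alone and -0.13 once the 100 most abundant genes were left out of it, and it was called higher with the length trend removed (0.45, adjusted p = 0.0181). Most exon bases of PIK3R2 (3947 of 4524) are shared with the same-strand readthrough gene AC007192.1, which held 106 counts over all libraries.

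AKT1, the most widely expressed AKT kinase, rose. It stood at 182, 205 and 170 CPM in untreated and at 302, 303 and 289 CPM in curcumin libraries. The 3 curcumin libraries lay close together and well above all untreated ones. The means were 186 ± 17.7 and 298 ± 7.68 CPM, a log2 fold change of 0.68 ± 0.13 (adjusted p = 0.00163). The rise was relative to other genes: by library size alone it was -0.12 (adjusted p = 0.485), and by library size less the 100 most abundant genes 0.32 (adjusted p = 0.0635). AKT2, the isoform best known for insulin-driven glucose uptake, stood at 72.0, 78.1 and 81.4 CPM in untreated and at 88.1, 87.8 and 99.8 CPM in curcumin libraries. The groups did not overlap, but the difference of 0.25 ± 0.14 did not pass the test (adjusted p = 0.139; means 77.2 ± 4.80 and 91.9 ± 6.86 CPM). AKT2 was called lower with library size alone (-0.56, adjusted p = 0.00604) and higher with the length trend removed (0.67, adjusted p = 0.00223).

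The partners of the TSC complex moved in opposite directions. TSC2 encodes tuberin, the subunit that carries the GTPase-activating domain for RHEB. It stood at 67.8, 69.6 and 72.2 CPM in untreated and at 119, 115 and 116 CPM in curcumin libraries. Spread was small within both groups, and the groups lay far apart. TSC2 rose from 69.9 ± 2.21 to 116 ± 1.83 CPM, 0.74 ± 0.13 on the log2 scale (adjusted p = 0.000781), and stood at -0.067 (adjusted p = 0.704) with library size alone. TSC2 exons share 778 bases with PKD1 and 402 with NTHL1, both on the opposite strand and with 12247 and 1552 counts over all libraries, and the use of strand in counting is not given in the sources used here. TSC1 encodes hamartin, which stabilises tuberin. It stood at 29.6, 31.8 and 29.5 CPM in untreated and at 20.0, 18.4 and 24.0 CPM in curcumin libraries, with no overlap. TSC1 fell from 30.3 ± 1.30 to 20.8 ± 2.88 CPM, -0.54 ± 0.17 (adjusted p = 0.0188). The call was lost without curcumin replicate 2 (-0.47, adjusted p = 0.0781), and the sign turned with the length trend removed (0.20, adjusted p = 0.341).

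MTOR encodes the kinase of both mTOR complexes. It stood at 66.9, 114 and 88.2 CPM in untreated and at 66.4, 61.4 and 52.7 CPM in curcumin libraries. Untreated replicate 1 lay barely above curcumin replicate 1, so the groups were separated by less than the spread within either. The means were 89.6 ± 23.4 and 60.2 ± 6.93 CPM, and the fall of -0.57 ± 0.20 passed the test narrowly (adjusted p = 0.0314). It was not called without untreated replicate 2 (-0.38, adjusted p = 0.106), untreated replicate 3 (adjusted p = 0.060), curcumin replicate 2 (adjusted p = 0.0746) or curcumin replicate 3 (adjusted p = 0.0723). Its sign turned once the length trend was taken out (0.19, adjusted p = 0.514).

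**Figure D1:**
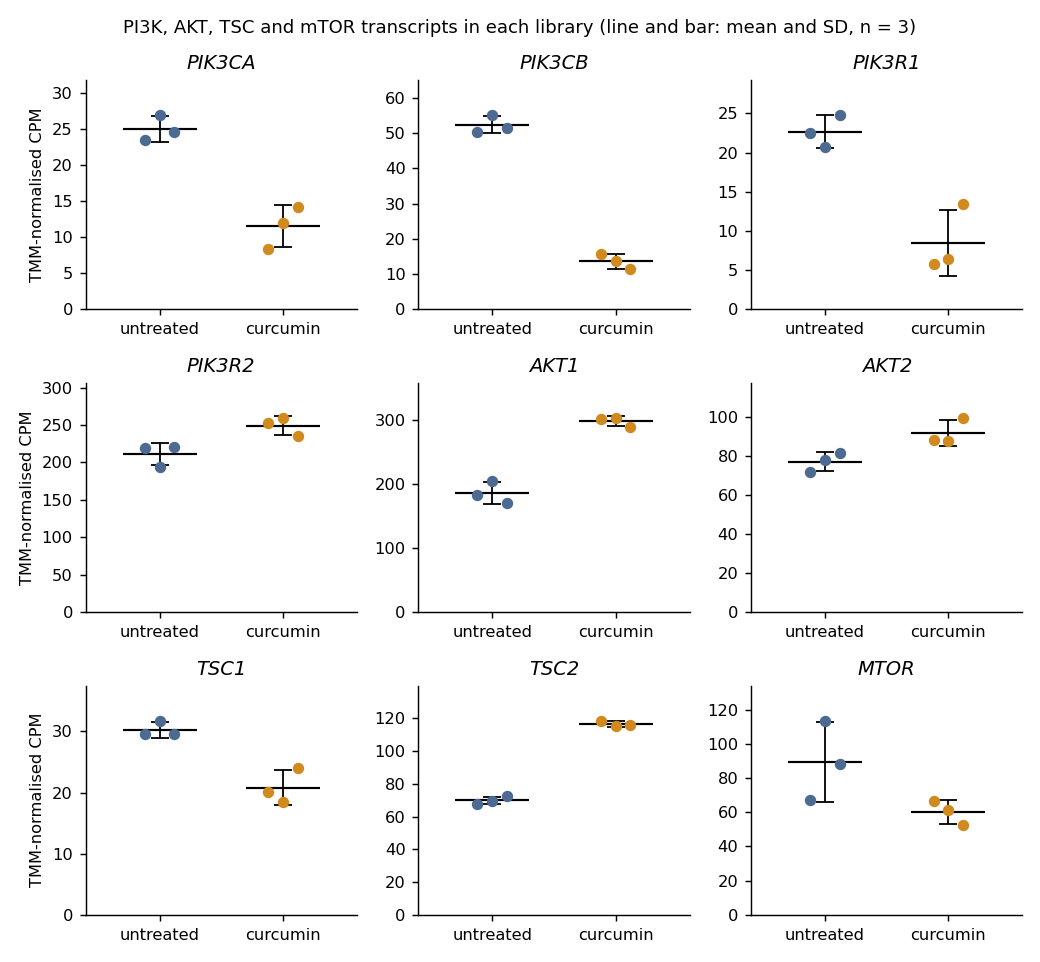
Each panel plots 1 gene, with TMM-normalised CPM on the vertical axis and 1 point per library (untreated in blue, curcumin in orange, replicates 1 to 3 from left to right), and the line and bar give the mean and SD of 3 libraries. The groups are far apart for PIK3CB and TSC2 and meet almost edge to edge for MTOR, at 66.9 CPM in untreated replicate 1 and 66.4 CPM in curcumin replicate 1.

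By this reading the groups did not overlap for any of the 9 genes: 4 stood higher in every curcumin library and 5 lower. Over all genes tested, 30.9% stood higher without overlap, 33.1% lower and 64.0% either way. The share of a library's counts held by the 9 genes lay between 0.0953% and 0.106% in untreated and between 0.0612% and 0.0704% in curcumin libraries. These shares rest on library size alone. On that scale the median log2 fold change was -0.84 over all genes tested and -1.35 over the 9 genes.

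PIK3CB, PIK3R1 and PIK3CA stood lower under every scaling run, and the other 6 genes did not keep their sign under all of them. With library size alone, 0 of the 9 genes were called higher and 7 lower, beside 9.62% and 56.5% of all genes. With library size less the 100 most abundant genes, 1 was called higher and 5 lower, beside 18.4% and 40.9% of all genes. With the length trend removed, 4 were called higher and 2 lower, beside 24.3% and 23.2% of all genes. With the trends of length and GC removed together, a setting chosen after seeing the data, 4 were again called higher and 2 lower, beside 25.0% and 22.8% of all genes. PIK3CB and PIK3R1 were the 2 called lower in both of these settings, and AKT1, TSC2, AKT2 and PIK3R2 were the 4 called higher.

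**Figure D2:**
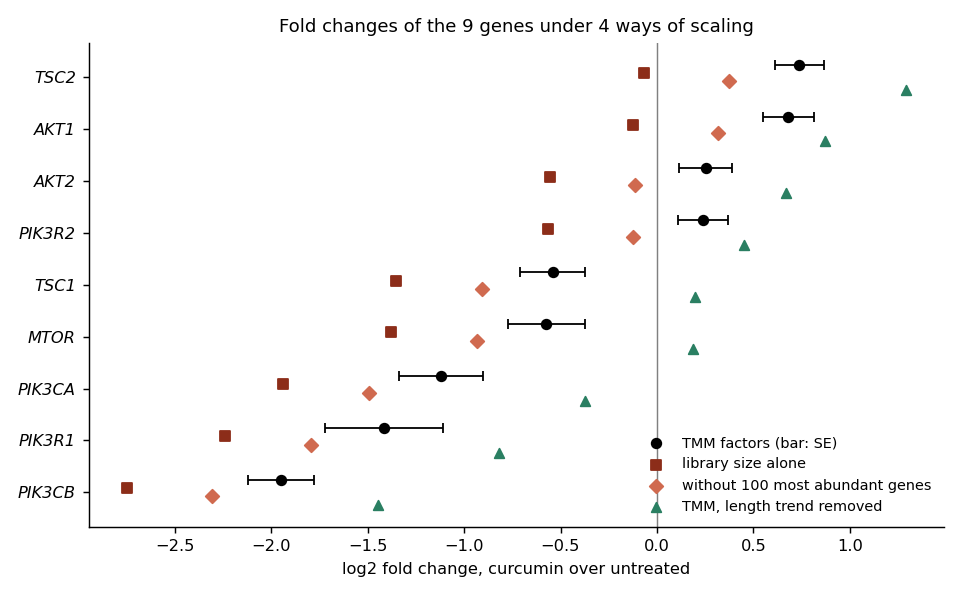
The horizontal axis is the log2 fold change of curcumin over untreated for each of the 9 genes under 4 ways of scaling (black circles with bars: TMM with its standard error; squares: library size alone; diamonds: library size without the 100 most abundant genes; triangles: TMM with the length trend removed). PIK3CB, PIK3R1 and PIK3CA lie below 0 in all 4, whereas AKT1 and TSC2 lie above 0 in 3 of 4 and at -0.12 and -0.067 with library size alone.

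Length and base composition moved with the fold changes over all genes. Among 13188 tested coding genes, the log2 fold change had a Spearman correlation of -0.452 with the length of the longest coding transcript and of 0.197 with its GC content, a description across genes, which are not independent replicates. These genes were divided by length into 5 bins of equal numbers. In the bin of the longest transcripts the median was -0.72, with 7.77% called higher and 55.7% lower. PIK3CA, PIK3CB, PIK3R1, TSC1, TSC2 and MTOR all belong to that bin. TSC1 (-0.54) and MTOR (-0.57) stood near its median. PIK3CB (-1.95), PIK3R1 (-1.42) and PIK3CA (-1.12) stood below it, and TSC2 (0.74) far above it. For the 9 genes these properties were taken from the annotation's principal transcript, which for TSC1 and TSC2 is not the longest. On that measure the fold change had a Spearman correlation of 0.833 with GC content and -0.483 with transcript length. With 3′ UTR length it was -0.533 (n = 9 genes, all from the same 6 libraries). The part of length and base composition in the single genes' changes was not tested beyond the settings above.

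**Figure D3:**
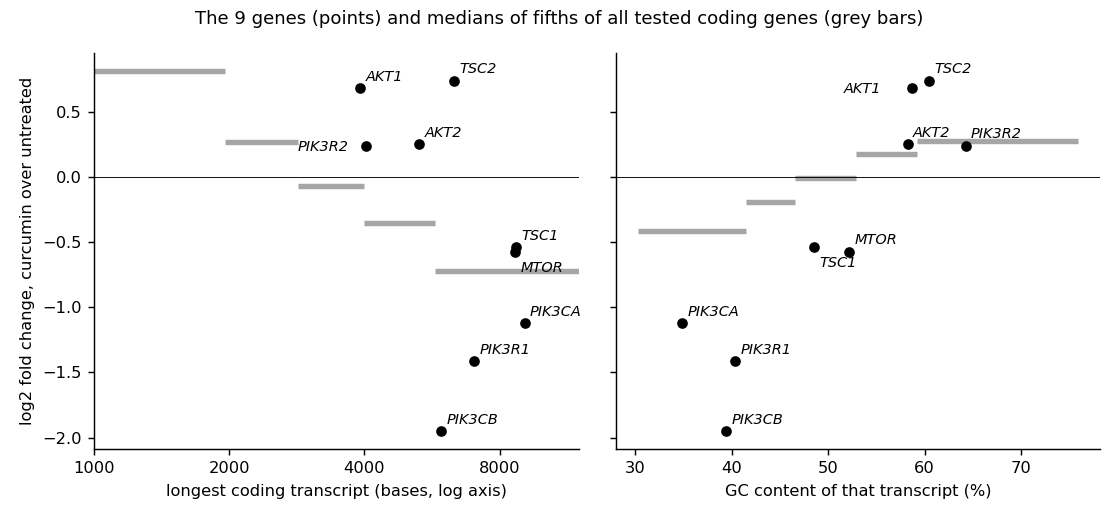
The vertical axis is the log2 fold change, and the horizontal axes are the length of the longest coding transcript (left, log axis) and its GC content in percent (right). Black points are the 9 genes and grey bars the medians of all tested coding genes in 5 bins of equal numbers, the first and last length bars ending at the axis limits. TSC2 stands at 0.74 where the longest bin has a median of -0.72.

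Ratios of 2 genes in the same library do not depend on scaling, and they set the balance between partners. With 3 libraries a group, the two-sided exact permutation test cannot give a p below 0.1, so none of 6 ratios could pass 0.05. The count ratio of TSC2 to TSC1 was 2.29, 2.19 and 2.45 in untreated and 5.92, 6.25 and 4.83 in curcumin libraries. It was higher in every curcumin library, by 1.29 on the log2 scale (exact p = 0.1, 0.12 after Benjamini-Hochberg adjustment over 6 ratios), and by 1.09 with the length trend removed. The ratio of PIK3R2 to PIK3R1 was 9.73, 9.39 and 8.90 in untreated and 43.8, 40.9 and 17.6 in curcumin libraries. The difference of 1.76 on the log2 scale was larger than the spread in either group (exact p = 0.1, adjusted 0.12), with curcumin replicate 3 lowest of its group. The ratio of MTOR to TSC2 was 0.987, 1.63 and 1.22 in untreated and 0.560, 0.534 and 0.455 in curcumin libraries. This ratio was lower in every curcumin library, by -1.29 (exact p = 0.1, adjusted 0.12).

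With no trend removed, the catalytic pair and the AKT pair shifted less. PIK3CB to PIK3CA stood at 2.15, 2.05 and 2.10 in untreated and at 1.87, 1.15 and 0.807 in curcumin libraries. All curcumin values lay below the untreated ones, at a difference of -0.81 (exact p = 0.1, adjusted 0.12), but they spread widely. The difference was -0.52 without curcumin replicate 3, -1.13 without curcumin replicate 1 and -1.08 with the length trend removed. AKT2 to AKT1 stood at 0.395, 0.381 and 0.479 in untreated and at 0.292, 0.289 and 0.345 in curcumin libraries. The groups did not overlap, and the difference of -0.43 (exact p = 0.1, adjusted 0.12) was -0.21 with the length trend removed. PIK3R1 to PIK3CA, a regulatory to a catalytic subunit, stood at 0.958, 0.764 and 1.01 in untreated and at 0.688, 0.530 and 0.945 in curcumin libraries. These groups overlapped, at a difference of -0.37 (exact p = 0.2, adjusted 0.2) that was -0.17 without curcumin replicate 2.

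**Figure D4:**
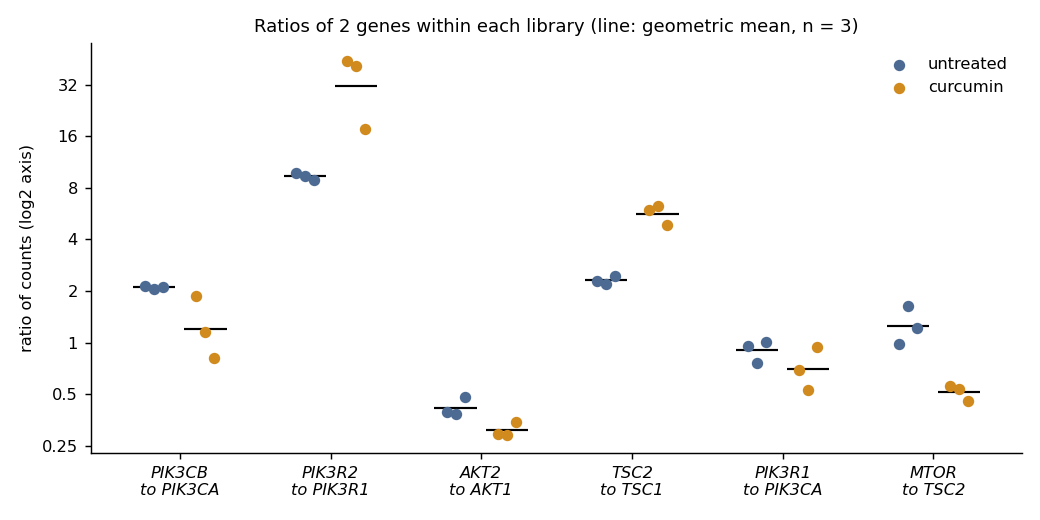
The vertical axis, on a log2 scale, is the ratio of counts of 2 genes within 1 library for 6 pairs, with 1 point per library (untreated in blue, curcumin in orange) and the geometric mean of 3 libraries as a line. TSC2 to TSC1 moves from 2.31 ± 0.130 to 5.67 ± 0.744 (SD), and only PIK3R1 to PIK3CA overlaps between the groups.

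Levels of different genes were compared per kilobase of the annotation's principal transcript (CPM per kb), which is the longest coding transcript except for TSC1 and TSC2, where it has 8616 and 6164 bases. In untreated cells PIK3R2 (52.4 ± 3.74, SD, n = 3) and AKT1 (47.4 ± 4.53) led and overlapped each other. AKT2 followed at 14.6 ± 0.91, then TSC2 (11.3 ± 0.36), MTOR (10.3 ± 2.69) and PIK3CB (8.86 ± 0.42), of which each overlapped its neighbour. TSC1 (3.52 ± 0.15), PIK3R1 (3.23 ± 0.30) and PIK3CA (2.75 ± 0.20) were lowest, again with overlapping neighbours. In curcumin-treated cells AKT1 (76.1 ± 1.96) stood above PIK3R2 (61.8 ± 3.03) without overlap, and TSC2 (18.9 ± 0.30) and AKT2 (17.3 ± 1.30) overlapped. MTOR stood alone at 6.93 ± 0.80, TSC1 (2.42 ± 0.33) overlapped PIK3CB (2.30 ± 0.36), and PIK3CA (1.27 ± 0.32) overlapped PIK3R1 (1.21 ± 0.60). PIK3CB thus moved from above TSC1 to overlapping it.

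Shares within each pair, per kilobase, describe the same balance. PIK3R1 made up 5.81% ± 0.25 of the PIK3R1 and PIK3R2 signal in untreated and 1.95% ± 1.05 in curcumin libraries (SD, n = 3). PIK3CA made up 23.7% ± 0.45 of the catalytic pair and then 35.6% ± 9.42. TSC1 made up 23.7% ± 1.01 of the TSC pair and then 11.3% ± 1.397. AKT1 made up 76.4% ± 2.25 of the AKT pair and then 81.4% ± 1.52. In every pair the shares did not overlap between the groups.

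By Pearson correlation of log2 CPM over the 6 libraries, among 10621 coding genes of at least 5 CPM, the gene most like PIK3CB was POFUT1 and that most like TSC2 was PSTPIP2 (r = 0.9996 and 0.999). PIK3CA was most like FBXW2 (0.998), PIK3R1 like TTBK2 (0.997), TSC1 like CTU1 (0.998), AKT1 like CAP1 (0.9997), PIK3R2 like AP1G2 (0.998), MTOR like EDRF1 (0.989) and AKT2 like ZNF75D (0.984). All of these values share the split of 6 libraries into 2 groups: 1392 genes had r above 0.95 with TSC2 and 1345 with PIK3CB, against 33 with AKT2 and 29 with MTOR.

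The other genes of the pathway were read from 11 lists by role, with 129 genes. Of these, 121 were tested: 22 were called higher, 60 lower and 39 neither, with a median log2 fold change of -0.50 against -0.04 over all genes. The shares of all genes given above (27.2% higher and 28.9% lower) are their background. With library size alone 9 were called higher and 89 lower (9.62% and 56.5% of all genes), and with the length trend removed 17 were called higher and 39 lower (24.3% and 23.2% of all genes).

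Receptors and adaptors, which feed PI3K, were called lower in 7 of 11 tested and higher in none (median -1.03). With the length trend removed, 6 of them were called lower and 1 higher. IRS1, the docking protein below the insulin and IGF1 receptors, stood at 139, 150 and 196 CPM in untreated and at 29.9, 30.3 and 29.2 CPM in curcumin libraries. Its fall of -2.44 ± 0.17 (adjusted p = 1.14e-05) was larger than that of any of the 9 genes. The receptor MET fell too, from 333 ± 29.1 to 118 ± 6.27 CPM. IRS2, the sister of IRS1, varied from 26.6 to 94.8 CPM among curcumin libraries alone and did not pass the test (0.06 ± 0.39, adjusted p = 0.912).

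Among other PI3K subunits, 6 of 9 tested were called lower and none higher (median -0.64). With the length trend removed, 4 of them were called lower and 1 higher. The class II enzyme PIK3C2B fell from 36.4 ± 5.05 to 9.97 ± 0.87 CPM and the autophagy lipid kinase PIK3C3 from 34.0 ± 4.76 to 13.9 ± 1.16 CPM. The leukocyte-enriched catalytic subunit PIK3CD, at 19.7 ± 2.27 and 13.0 ± 1.52 CPM, was called lower too (-0.60 ± 0.19, adjusted p = 0.0208), and was not called after removal of the length trend (-0.15, adjusted p = 0.551), without untreated replicate 1 (adjusted p = 0.072) and without untreated replicate 3 (adjusted p = 0.073).

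The phosphatases that oppose PI3K and AKT were split, with 2 of 11 called higher and 5 lower (median -0.25). PHLPP1, an AKT phosphatase, fell from 36.6 ± 3.58 to 9.38 ± 1.07 CPM. The lipid phosphatase INPPL1 rose from 130 ± 16.4 to 254 ± 2.58 CPM, and was not called under library size alone (0.16, adjusted p = 0.377). INPP5K was called higher (0.53 ± 0.16, adjusted p = 0.0190), stood at -0.28 with library size alone, and lost the call without the first untreated library (adjusted p = 0.061), without the second (0.0612) and without curcumin replicate 2 (0.0753).

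Of the kinases that activate AKT or resemble it, 1 of 5 tested was called higher and 4 lower (median -0.99). PDPK1, which phosphorylates the activation loop of AKT, fell from 77.6 ± 10.4 to 33.4 ± 2.93 CPM. PKN2, a related kinase, fell from 59.6 ± 1.38 to 30.0 ± 3.84 CPM. SGK1, a relative of AKT that shares many substrates, went the other way. It stood at 5.20, 3.50 and 3.82 CPM in untreated and at 30.9, 30.6 and 51.0 CPM in curcumin libraries. This rise of 3.17 ± 0.27 (adjusted p = 1.71e-05) was the largest among the tested genes of the 11 lists.

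The partners of MTOR were called higher in 2 of 10 tested and lower in 4 (median -0.21). RPTOR, the scaffold of mTOR complex 1, fell from 94.2 ± 20.1 to 36.9 ± 4.08 CPM, and RICTOR, the scaffold of complex 2, fell from 24.9 ± 1.61 to 6.09 ± 0.60 CPM. The shared subunit MLST8 rose from 50.8 ± 3.26 to 104 ± 17.3 CPM, and AKT1S1, the AKT-regulated inhibitor PRAS40, rose from 87.1 ± 11.4 to 220 ± 30.2 CPM. MLST8 lost the call with library size alone (0.24, adjusted p = 0.265). RHEB was called higher, at 56.2 ± 5.94 and 89.8 ± 13.6 CPM (0.68 ± 0.16, adjusted p = 0.00525), but stood at -0.14 with library size alone and lost the call with the length trend removed (0.30, adjusted p = 0.152).

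Amino acid sensing genes, which place mTOR complex 1 on the lysosome, were called higher in 6 of 30 and lower in 12 (median -0.25). SEC13 rose from 63.4 ± 14.5 to 164 ± 15.9 CPM. LAMTOR2, of the Ragulator complex, was called higher (1.28 ± 0.16, adjusted p = 0.000132), at 14.1 ± 0.71 and 34.3 ± 2.99 CPM, and stood at -0.012 with the length trend removed. KICS2, of the KICSTOR complex, fell from 13.7 ± 0.24 to 2.21 ± 0.37 CPM, and WDR24 fell from 22.3 ± 2.13 to 9.39 ± 1.39 CPM. SESN2, a stress-induced leucine sensor, reached 276 CPM in curcumin replicate 3 against 75.2 and 97.5 CPM in the other curcumin libraries. It did not pass the test (1.10 ± 0.49, adjusted p = 0.0782), but did without curcumin replicate 1 (1.41, adjusted p = 0.0253), with no filter (adjusted p = 0.00513) and with the replicate number as a block (adjusted p = 0.0146). Without curcumin replicate 3 its log2 fold change was 0.31 (adjusted p = 0.473), and with library size alone 0.26 (adjusted p = 0.614).

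Energy and stress inputs were called higher in 1 of 11 and lower in 6 (median -0.46). DDIT4L, a relative of the mTOR inhibitor DDIT4, fell from 30.1 ± 10.9 to 4.12 ± 0.75 CPM. DDIT4 itself did not pass the test (0.17 ± 0.43, adjusted p = 0.753), with 75.3 CPM in untreated replicate 2 against 309 and 321 CPM in the other untreated libraries. The AMPK subunit PRKAG2 fell from 24.5 ± 2.62 to 14.9 ± 1.30 CPM, and PRKAG1 was called higher, at 31.2 ± 4.004 and 48.9 ± 3.92 CPM, but stood at -0.15 with library size alone and lost the call with the length trend removed (0.09, adjusted p = 0.670).

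Genes downstream of mTOR complex 1 were called in 13 of 14, 6 higher and 7 lower (median -0.66). The ribosomal protein RPS6 rose from 913 ± 221 to 4468 ± 561 CPM and the elongation factor EEF2 from 3667 ± 707 to 15160 ± 1869 CPM. The cap-binding factor EIF4E fell from 68.4 ± 12.6 to 26.4 ± 3.36 CPM, and ULK1, the autophagy kinase that mTOR restrains, fell from 83.6 ± 15.1 to 32.7 ± 1.66 CPM. RPS6KB1, an S6 kinase, fell from 54.4 ± 3.99 to 30.9 ± 7.96 CPM, and was not called after removal of the length trend (-0.39, adjusted p = 0.113). The sister S6 kinase RPS6KB2 was called higher, at 38.8 ± 4.11 and 66.5 ± 5.30 CPM (0.775 ± 0.15, adjusted p = 0.00159). EIF4EBP1, the inhibitor of EIF4E, was called higher, at 57.6 ± 7.47 and 103 ± 21.6 CPM (0.85 ± 0.19, adjusted p = 0.00327), but stood at 0.05 with library size alone and at -0.13 with the length trend removed.

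AKT substrates were called higher in 2 of 11 and lower in 6 (median -0.49). FOXO3, a transcription factor that AKT holds out of the nucleus, fell from 74.8 ± 10.6 to 20.0 ± 9.29 CPM. TBC1D4 fell from 68.6 ± 5.90 to 32.1 ± 3.26 CPM while its relative TBC1D1 was called higher, at 80.8 ± 0.49 and 136 ± 11.5 CPM, and stood at -0.050 with library size alone. The cell death gene BAD rose from 27.1 ± 3.32 to 66.7 ± 10.2 CPM, and was not called after removal of the length trend (0.42, adjusted p = 0.0732).

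Of 8 known targets of FOXO factors, 6 were tested, 1 was called higher and 3 lower (median -0.79). CCNG2 fell from 41.0 ± 12.4 to 12.3 ± 1.98 CPM. BCL2L11, encoding the death protein BIM, fell from 38.0 ± 6.80 to 20.0 ± 6.81 CPM, and was not called after removal of the length trend (-0.53, adjusted p = 0.0748). GADD45A rose from 58.4 ± 23.1 to 230 ± 144 CPM, with 397 CPM in curcumin replicate 3. TXNIP was listed at 0 in all 6 libraries, and whether the counting could pick it up is not given in the sources used here. SOD2 was not analysed here. Some calls above also failed under other settings: with library size less the 100 most abundant genes, RHEB (adjusted p = 0.113), EIF4EBP1 (0.0535), INPP5K (0.436) and PRKAG1 (0.17) were not called, nor was INPP5K with no filter (0.0527) or EIF4E with length and GC trends removed (0.0548).

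**Figure D5:**
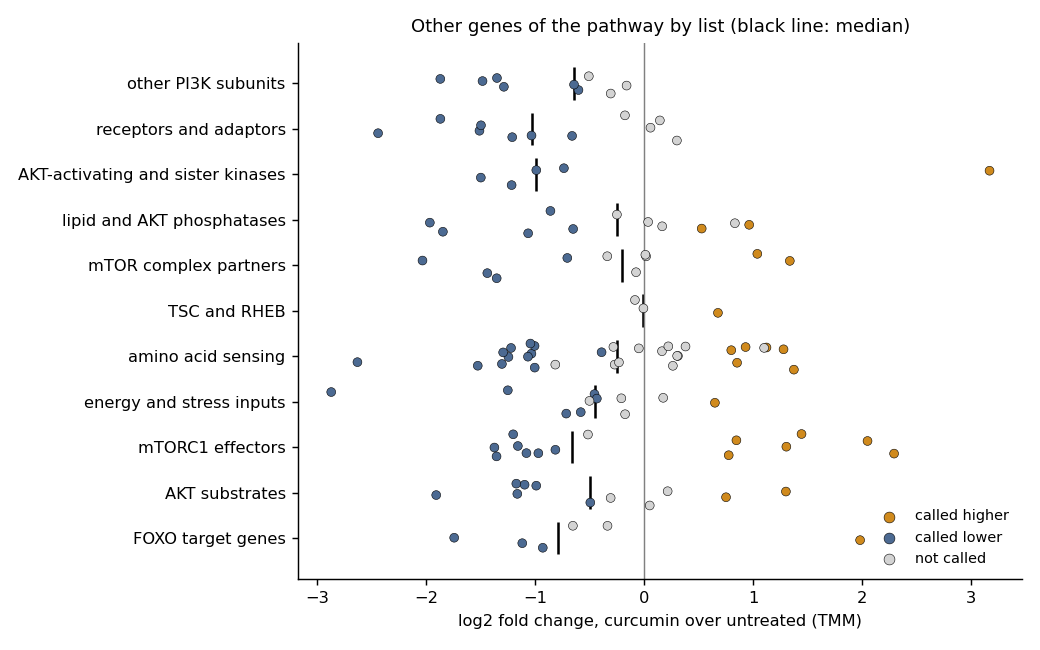
The horizontal axis is the log2 fold change (TMM) of each tested gene of the 11 lists, 1 row per list and 1 point per gene (orange: called higher, blue: called lower, grey: not called), with the list's median as a black line. Receptors and adaptors and other PI3K subunits hold no gene called higher, while mTORC1 effectors fall on both sides and SGK1 stands alone at 3.17.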

How the data were processed

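The authors deposited 1 table of estimated counts per gene (expected counts, 24.8% of values not whole), with no scaling between libraries. Per the labels' protocols, RNA was extracted with organic solvents and libraries were made with a SMARTer mRNA-Seq kit. The aligner is not given in the sources used here, nor are the quantifier and annotation. Mouse builds (GRCm38, mm10) stand in the submitters' processing notes, but all 35106 rows carry human Ensembl identifiers, of which 35003 were found in GENCODE release 29 (GRCh38).

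Counts were rounded, which moved no value by more than 0.5. Genes passing edgeR's filterByExpr (minimum count 10, minimum total 15) entered the quasi-likelihood test of edgeR 4.0.16 (R 4.3.3) with TMM factors, over all 6 libraries with no other term. P-values were adjusted (Benjamini-Hochberg) over 13718 genes and called under 0.05. A floor of 3 counts was 0.114 to 0.123 CPM in untreated and 0.224 to 0.238 CPM in curcumin libraries, covering counting error only. Replicates were not duplicates: chi-square over degrees of freedom between them was 11.2 to 74.7.

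Ratios within a library were compared by exact permutation. Alternatives were other scalings and filters, coding genes only, each library's loess trend with transcript length removed (span 0.3), a replicate block, DESeq2 1.42.0, limma 3.58.1 voom and leaving out each library. Removing the GC trend as well was added after seeing the data.

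The 9 genes and the lists were chosen with earlier results of these data known. All 9 are named. Each list names up to 2 genes called higher and 2 lower with the smallest adjusted p, plus 12 genes fixed by role, of which some are not reported here. Cell type markers were epithelial, fibroblast, endothelial and leukocyte genes. On simulated data (13515 genes tested, curcumin against untreated) the test found 57 of 100 genes changed 2-fold and 91 of 100 changed 4-fold. It called 13 of 13518 unchanged draws, where draws removed by the filter counted as not called. The simulation changed far fewer genes than were called here, evenly up and down, and gave both groups the same profile otherwise. These rates may therefore not hold for the real libraries.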

Additional observations from a re-analysis of the deposited data

How the results depend on the processing

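PIK3CB and PIK3R1 were called lower in all 17 alternatives run for each. The other calls among the 9 genes depended on scaling or on single libraries, as given beside each gene. With library size alone, 1320 of all genes were called higher and 7744 lower, 0 of the 9 genes and 9 pathway genes were called higher, 7 and 89 lower, and the log2 fold change was -0.56 for PIK3R2, -0.12 for AKT1, -0.56 for AKT2, -0.067 for TSC2, -0.14 for RHEB, -0.64 for DDIT4, -0.78 for IRS2, -0.28 for INPP5K, -0.15 for PRKAG1 and -0.050 for TBC1D1. Without the 100 most abundant genes, 1 of the 9 genes was called higher and 5 lower (all genes: 2523 and 5604), and PIK3R2 stood at -0.13, AKT2 at -0.11, DDIT4 at -0.20 and IRS2 at -0.33. With the length trend removed, 4 of the 9 genes were called higher and 2 lower, 17 pathway genes were called higher and 39 lower, and TSC1 stood at 0.20, MTOR at 0.19, EIF4EBP1 at -0.13, DDIT4 at -0.35 and LAMTOR2 at -0.012. With length and GC trends removed, 4 and 2 of the 9 were called, with TSC1 at 0.17, MTOR at 0.13, DDIT4 at -0.41 and LAMTOR2 at -0.050. IRS2 stood at -0.027 with no filter and -0.11 with limma-voom. The cause of these turns was not tested.

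Leaving out each library in turn left 3 to 5 of the 9 genes called lower (3 without curcumin replicate 2) and 2 higher, and 49 to 63 pathway genes called lower. Over the same runs all genes ranged from 3253 to 3843 higher and from 3369 to 4306 lower. DDIT4 ranged from -0.26 (without untreated replicate 2) to 0.45, and stood at -0.082 without curcumin replicate 3. IRS2 ranged from -0.60 (without curcumin replicate 3) to 0.38, and stood at -0.16 without untreated replicate 2. Samples of the same replicate number deviated together weakly (correlations of 0.040, 0.023 and 0.111), so the numbers were not taken as pairs. With the replicate block, 3683 genes were called higher and 4011 lower, SESN2 was called (1.01, adjusted p = 0.0146), IRS2 stood at -0.088, and no other call among the named genes changed. At a floor of 3 counts the 9 genes lay well above the depth limit.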
